A study of Mus musculus with 47 samples.

Results

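The Cyp2a and Cyp2b genes of mouse chromosome 7 encode cytochromes P450 of liver and other tissues, and their H3K27me3, H3K27ac and H3K4me1 marks were examined in control and E1/E2-KO liver. The 9 genes were taken by name and by their span in mm9, and they are 9 of 22367 protein-coding genes of the annotation. In chromosomal order they are Cyp2b10, Cyp2b13, Cyp2b9, Cyp2a4, Cyp2b23, Cyp2b19, Cyp2a5, Cyp2a22 and Cyp2a12, so that 5 Cyp2b and 4 Cyp2a genes lie within 1.14 Mb at chr7:26682639-27821826. All livers were from mice 7 weeks of age. Control mice of both sexes were floxed, with the genotype Ezh2 f/f. E1/E2-KO mice of both sexes, abbreviated KO, carried Ezh1-/-, EZH2f/f and AC+, the Alb-Cre transgene. The albumin promoter drives Cre in hepatocytes, so Ezh2 was deleted in hepatocytes whereas Ezh1 was absent from every cell type, and the other cells of the liver kept Ezh2. ChIP-seq for 3 marks in 4 groups gave 12 lists of marked positions. Each list stands for 4 livers, although for the female KO list of H3K4me1 the sample records name 3 where the methods text has 4, and the livers of a group were pooled before calling.

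EZH1 and EZH2 are the catalytic subunits of the Polycomb complex that places H3K27me3, a mark of repressed chromatin. H3K27ac marks active promoters and enhancers, and H3K4me1 marks enhancers whether or not they are active. In the liver of mice, several P450 genes differ between the sexes under the control of the growth hormone pattern, and CYP2B enzymes are known for induction by phenobarbital through the nuclear receptor CAR, encoded by Nr1i3.

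Each list is 1 pooled measurement. There is therefore no replicate error, no test between groups was made, and every difference below is a difference between lists, in which a marked position is either present or absent and carries no height. A position missing from a list was not called there, which does not show that the mark was absent. In whole liver, a change in the share of a cell type and a change of the mark within that cell type cannot be told apart. The lists were of unequal length. H3K27me3 lists held 16862 regions in control male, 15603 in KO male, 19796 in control female and 16127 in KO female liver, and covered between 26.6% and 28.9% of the genome. Thus the KO lists were nearly as extensive as the control lists. The H3K27ac list of control male liver held 29359 peaks against 49702 to 55930 in the other lists, and the H3K4me1 lists held 51417 to 69797 peaks. The lists hold no measure of the deletion of Ezh1 or Ezh2. Of 6 hepatocyte markers, 2 (control male), 3 (KO male), 3 (control female) and 4 (KO female) had an H3K27ac peak within 1 kb of the start, Alb and Ttr among them in every list. Over all 22367 protein-coding genes the counts were 10031, 11588, 11361 and 11500. For 5 endothelial markers they were 0, 2, 1 and 3, for 5 stellate markers 1, 1, 2 and 2, and for 3 cholangiocyte markers 1 in each list. The 6 hepatocyte markers overlapped no H3K27me3 region in either control list, but 3 did in KO male and 4 in KO female liver. All 5 stellate, 3 of 3 cholangiocyte and 4 of 5 endothelial markers overlapped an H3K27me3 region in control male liver. In control female liver the counts were the same. The endothelial count was 2 in both KO lists, the cholangiocyte count 3 in both, and the stellate count 5 in KO male and 4 in KO female liver. The part of other liver cells in the results was not tested.

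Reads of near-identical paralogs limit what can be seen at these genes. Cyp2b9 and Cyp2b13, which are known as female-biased genes of adult liver, have promoters that are the same at 298 of 300 bases, and Cyp2a4 and Cyp2a5 have promoters that match at 294 of 299 aligned bases with a shift of 1 base. These sequences are shown because a read of 50 nt often cannot be assigned to 1 of the copies. They are RefSeq sequences (GRCm38.p6) from 250 bases before to 50 bases after the start of the gene, placed in mm9 by an exact match, and capitals mark the bases at which the genes of a pair differ.
Cyp2b9, chr7:26958178-26958477, plus strand: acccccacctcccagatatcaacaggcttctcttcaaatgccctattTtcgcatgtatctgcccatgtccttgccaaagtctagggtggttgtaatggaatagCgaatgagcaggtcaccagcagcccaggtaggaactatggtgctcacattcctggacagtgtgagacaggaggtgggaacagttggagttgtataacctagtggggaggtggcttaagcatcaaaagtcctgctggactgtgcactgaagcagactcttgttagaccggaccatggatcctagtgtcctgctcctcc
Cyp2b13, chr7:26846264-26846563, plus strand: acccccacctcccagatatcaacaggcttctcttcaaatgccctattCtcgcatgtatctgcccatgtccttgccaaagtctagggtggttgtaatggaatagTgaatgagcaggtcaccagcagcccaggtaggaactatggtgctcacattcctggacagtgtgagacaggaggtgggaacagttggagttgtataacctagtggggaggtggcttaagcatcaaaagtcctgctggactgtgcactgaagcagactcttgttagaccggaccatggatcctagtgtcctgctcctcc
Cyp2a4, chr7:27091961-27092260, plus strand: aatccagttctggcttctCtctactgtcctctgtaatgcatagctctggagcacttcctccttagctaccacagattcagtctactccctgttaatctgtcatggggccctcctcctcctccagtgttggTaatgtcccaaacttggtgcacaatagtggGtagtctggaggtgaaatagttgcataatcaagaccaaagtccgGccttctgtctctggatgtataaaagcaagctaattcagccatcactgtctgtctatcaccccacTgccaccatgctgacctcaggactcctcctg
Cyp2a5, chr7:27620108-27620407, plus strand: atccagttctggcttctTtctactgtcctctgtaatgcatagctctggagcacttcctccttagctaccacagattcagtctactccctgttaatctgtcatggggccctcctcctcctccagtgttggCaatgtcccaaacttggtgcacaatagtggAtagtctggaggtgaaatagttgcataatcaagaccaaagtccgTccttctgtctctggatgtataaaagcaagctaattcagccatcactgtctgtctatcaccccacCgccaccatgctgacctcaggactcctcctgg
The Cyp2b9 and Cyp2b13 promoters shared an uninterrupted run of 196 bases. Within the Cyp2b9 promoter 39.0% of 50-nt sequences occurred once in the genome, and within the Cyp2b13 promoter 25.1% did. For both Cyp2a promoters the value was 69.3%. By contrast, the promoter of Cyp2b10, the phenobarbital-inducible gene, was unique in the genome, with 100% of its 50-nt sequences occurring once. It is shown because it lay inside an H3K27me3 region in control male liver and in no other list. Its sequence has no capitals, since it is not set against another gene.
Cyp2b10, chr7:26682427-26682726, plus strand: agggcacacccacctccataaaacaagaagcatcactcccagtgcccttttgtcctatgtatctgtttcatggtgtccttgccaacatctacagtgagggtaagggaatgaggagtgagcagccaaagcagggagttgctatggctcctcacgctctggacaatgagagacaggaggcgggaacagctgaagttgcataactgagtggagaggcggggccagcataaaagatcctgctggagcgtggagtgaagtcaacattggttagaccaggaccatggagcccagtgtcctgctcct

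Over whole gene spans, the share of 50-nt sequences that occurred once in the genome ranged from 52.4% to 98.5%. Cyp2b19, Cyp2b23 and Cyp2b10 were at the high end with 98.5%, 97.1% and 92.6%. The sister genes Cyp2a12 and Cyp2a22 had 83.2% and 81.3%, and they shared 16.5% and 16.4% of their 50-nt sequences with each other. Cyp2b9 had 75.4% and Cyp2b13 66.2%. The lowest values were those of Cyp2a4 with 57.2% and Cyp2a5 with 52.4%. Cyp2a4 shared 36.4% of its 50-nt sequences with Cyp2a5, and the longest run common to their spans was 259 bases. For Cyp2b9 and Cyp2b13 the longest common run was 301 bases. For 100-nt sequences, the length of both reads of a pair together, the share was 76.5% for Cyp2a5 and 82.1% for Cyp2a4. Cyp2a5 and Cyp2a4 were therefore measured over many positions that a single read cannot place, whereas Cyp2b10, Cyp2b23 and Cyp2b19 were nearly free of this limit.

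All 5 Cyp2b genes overlapped an H3K27me3 region in control male liver, 2 of them did in control female liver, and none did in KO liver of either sex. No Cyp2a gene overlapped a region in any list. Over all protein-coding genes, 42.4% overlapped a region in control male, 47.1% in KO male, 42.6% in control female and 40.8% in KO female liver. In control male liver regions spanned 100% of Cyp2b10 and of Cyp2b19, a P450 known from epidermis, 79.2% of Cyp2b23, 50.8% of Cyp2b13 and 37.8% of Cyp2b9. In control female liver regions spanned 37.2% of Cyp2b10 and 100% of Cyp2b19, while Cyp2b13, Cyp2b9 and Cyp2b23 were at 0%. In KO male and KO female liver the value was 0% for each of the 9 genes. The median over the 5 Cyp2b genes was thus 79.2% in control male liver and 0% in the other 3 lists, and over all protein-coding genes it was 0% in each list. The plot of coverage by gene shows these values. Only 57.2% and 52.4% of the 50-nt sequences of Cyp2a4 and Cyp2a5 occurred once in the genome. Neither gene had a call of any mark in any list, so their 0% does not show that H3K27me3 was absent. A difference between the subfamilies was not tested.

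**Figure D1:**
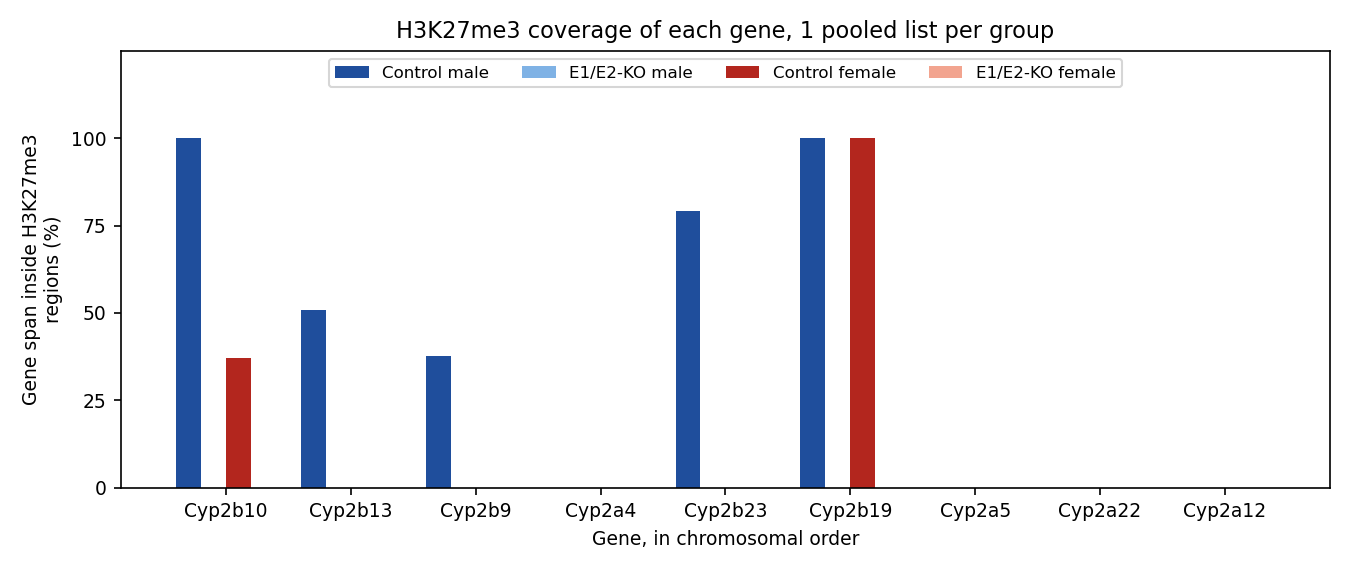
Percent of each gene span inside H3K27me3 regions (vertical axis) for the 9 genes in chromosomal order, with 1 bar for each group and 1 pooled list behind each bar, so that no error can be drawn. Bars stand at all 5 Cyp2b genes in control male liver, at Cyp2b10 and Cyp2b19 in control female liver, and nowhere in KO liver.

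The first question was whether H3K27me3 was lost at these genes in KO male liver. Coverage was lower by at least 25 percentage points at 5 of the 9 genes, all of them Cyp2b, against 6.07% of all protein-coding genes and 6.13% of those in the length range of the 9 genes (7718 to 37251 bp). The count was 2 within 3 kb of the start and 3 with the widest 50% of regions, where Cyp2b9 and Cyp2b23 were at 0%. Coverage was higher by that much at none of the 9, against 9.86% of all genes. With all 9 at 0% in KO male liver, none could be higher. Of the genes that overlapped a region in control male liver, 13.1% overlapped none in KO male liver, and 10.6% overlapped none in either KO list. Of the Cyp2b genes 5 of 5 overlapped none in either. In female liver coverage was lower by 25 points at 2 of the 9 genes, Cyp2b10 and Cyp2b19, against 7.59% of all genes. It was higher at 6.29% of all genes and at none of the 9, which were all at 0% in KO female liver and could not be higher. The count of lower genes was 0 with the widest 50% of regions, and 1 for a fall of 50 points, within 3 kb of the start or with equal numbers of the widest regions. Both of the members that overlapped a region in control female liver overlapped none in KO female liver, against 17.8% of all such genes.

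The sexes were compared next. In control female liver coverage was lower than in control male liver at 4 of the 9 genes, namely Cyp2b10, Cyp2b13, Cyp2b9 and Cyp2b23, against 6.38% of all genes, and higher at none, against 5.28%. The count of lower genes was 1 within 3 kb of the start. Cyp2b19 was fully inside a region in both sexes. Between the KO lists no member differed, because all were at 0%, whereas 11.0% of all genes were lower and 4.76% higher in KO female liver. The comparisons share lists and are not independent of each other. Across chr7:26682639-27821826, control male regions numbered 14 and covered 27.3% of the bases, control female regions numbered 4 and covered 5.76%, and neither KO list held a region there. Over the genome the same 4 lists covered 26.6% to 28.9%.

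**Figure D2:**
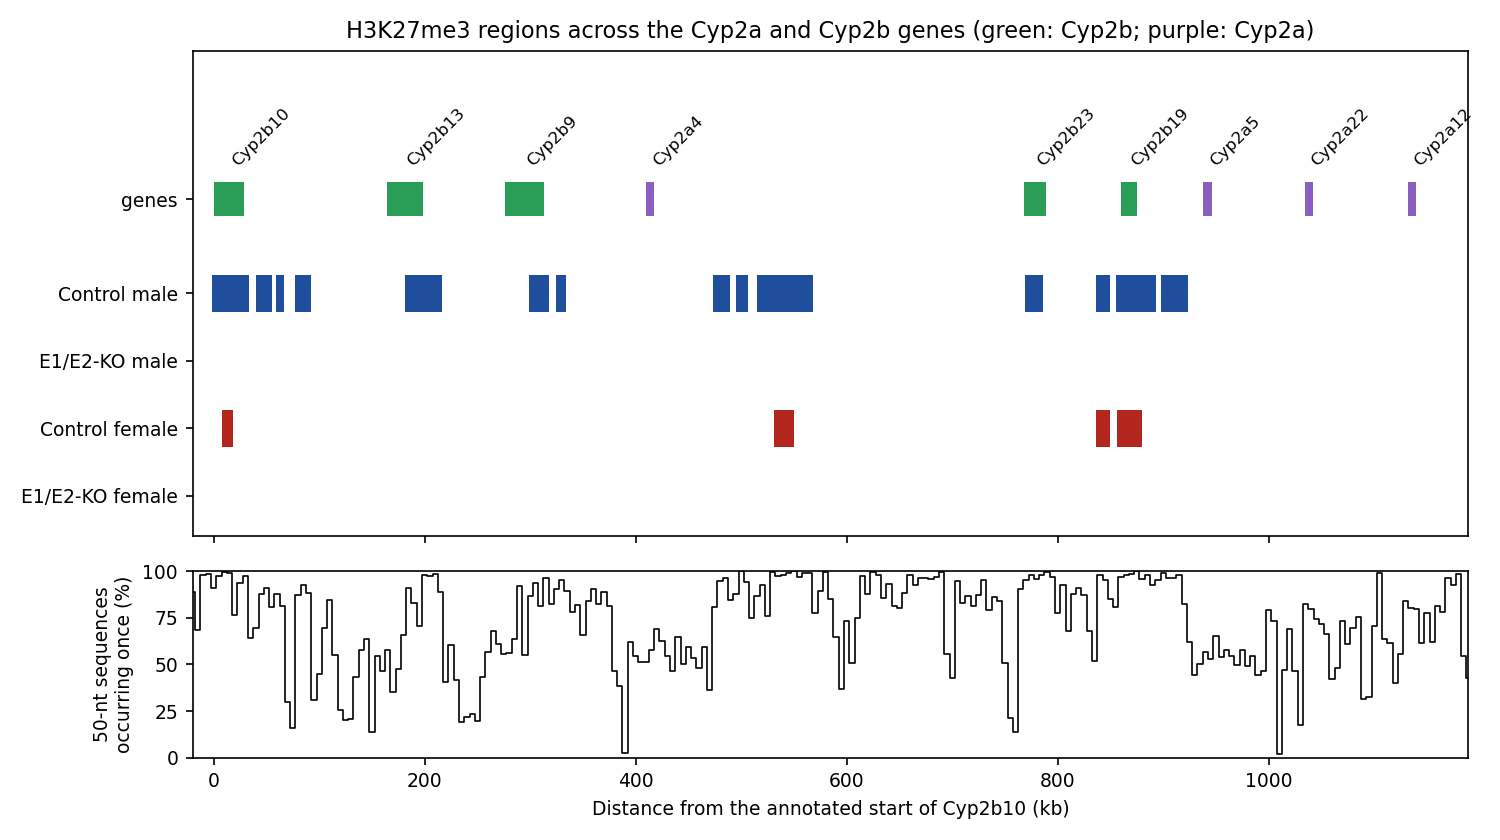
Upper panel: the 9 genes (green Cyp2b, purple Cyp2a) and the H3K27me3 regions of each group along the locus, in kb from the annotated start of Cyp2b10. Lower panel: percent of 50-nt sequences that occur once in the genome, in 5-kb bins. Inside the 14 control male regions 94.0% of 50-nt sequences occur once, 4 regions are left in control female liver and none in KO liver.

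The edges of the regions differed among the Cyp2b genes. At Cyp2b10, annotated at chr7:26682639-26711643 on the plus strand, the control male region chr7:26680801-26715600 was 34800 bp wide. It began 1838 bp before the transcription start and ended 3957 bp beyond the gene. The control female region at Cyp2b10, chr7:26690001-26700800, was 10800 bp wide and reached from intron 1 to intron 6, so that the start of the gene lay outside it. At Cyp2b19, chr7:27542182-27557649, the control male region of 38000 bp began 4181 bp before the start, and the control female region of 22800 bp began 2981 bp before it. At these genes the start itself was inside a region in control male liver. It was not at the other Cyp2b genes.

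At Cyp2b13, chr7:26846514-26881215, the control male region of 35600 bp began in intron 1, 17087 bp after the start, and ran 17985 bp past the end of the gene. At Cyp2b9, chr7:26958430-26995680, the region of 19200 bp began in intron 4, 23171 bp after the start, and ran 5120 bp past the end. Hence both genes had a region over the 3' part of the gene and none over the 5' part. Sequence uniqueness differed between the marked and unmarked parts of both genes, as averages within the gene. Inside the region 83.5% of the 50-nt sequences of Cyp2b13 occurred once, and outside it 48.4% did. For Cyp2b9 the values were 90.3% inside and 66.4% outside. The part of mapping in these edges was not tested. At Cyp2b23, chr7:27450246-27471456 on the minus strand, the region of 16800 bp reached from intron 1, 3056 bp after the start, to intron 8. There uniqueness was 96.3% inside and 100% outside the region. Over the whole locus 94.0% of 50-nt sequences inside control male regions occurred once, against 63.4% outside them.

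H3K27ac peaks were counted within 10 kb of each gene. In control male liver 1 of the 9 genes had a peak, in KO male liver 5 did, in control female liver 4 did and in KO female liver 6 did. Over all protein-coding genes, 60.4%, 69.0%, 67.0% and 68.4% had a peak in the same lists. No Cyp2b gene had an H3K27ac peak in control male liver, which is also the shortest H3K27ac list. The 5 Cyp2b genes together had 7 peaks in KO male, 11 in control female and 10 in KO female liver. Of these, 5, 7 and 9 overlapped a region that was marked by H3K27me3 in control male liver. Those regions covered 53.9% of the Cyp2b genes with 10 kb on each side. Over the whole locus, 94.0% of 50-nt sequences inside control male regions occurred once, against 63.4% outside them. Inside H3K27ac peaks of any group 96.6% did. The part of mapping in this overlap was not tested. The plot of peak numbers shows the counts by gene.

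**Figure D3:**
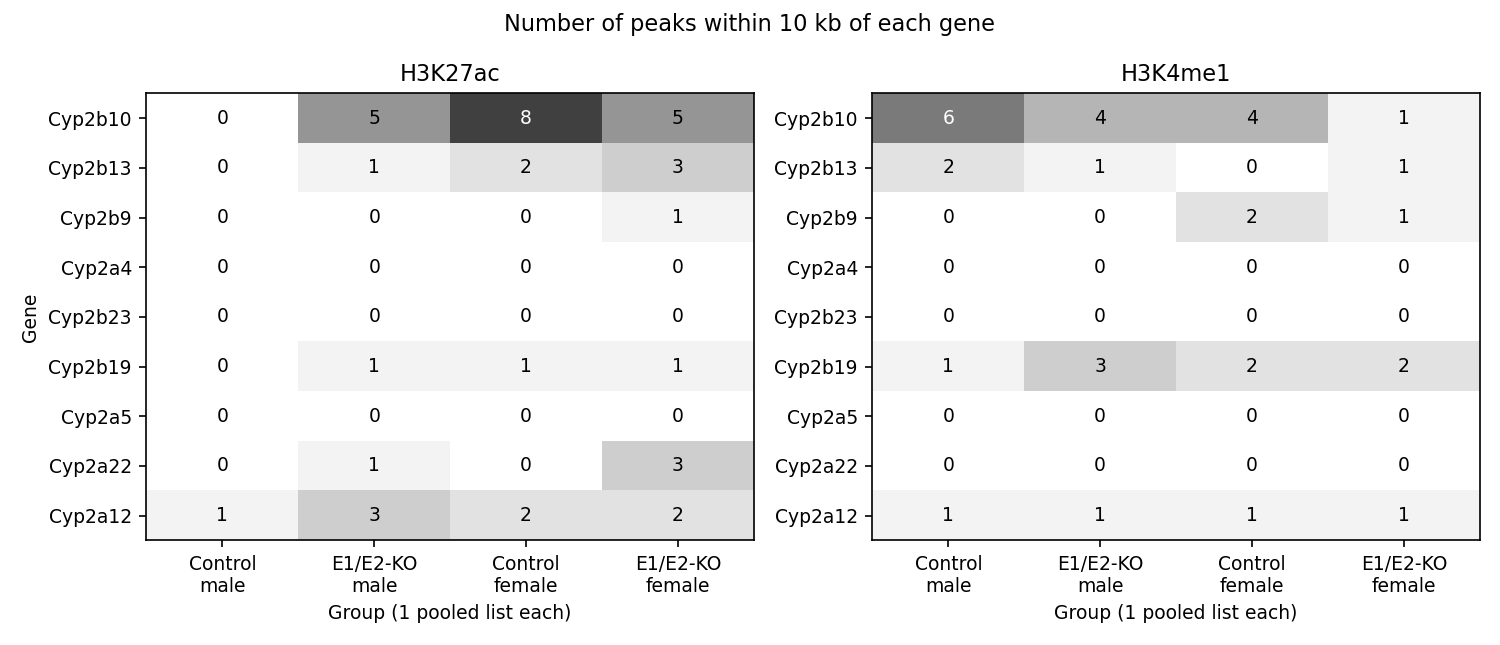
Number of H3K27ac peaks (left) and H3K4me1 peaks (right) within 10 kb of each gene in each group, with 1 pooled list per group and darker cells for more peaks. Cyp2b10 had no H3K27ac peak in control male liver and 5 to 8 in the others, and Cyp2a4, Cyp2a5 and Cyp2b23 had no peak of either mark in any list.

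A peak counted as new when it overlapped no peak of the compared list by 1 bp or more. In KO male against control male liver 5 of 9 genes had a new H3K27ac peak, namely Cyp2b10, Cyp2b13, Cyp2b19, Cyp2a22 and Cyp2a12. This share is near that of all genes, 47.5%. Cyp2a12 was the 1 member with a peak in control male liver, so the others could have none missing from another list. Its peak was not missing from KO male liver, and 9.54% of all genes had one missing. In KO female against control female liver Cyp2b13, Cyp2b9 and Cyp2a22 had a new peak (28.7% of all genes), and Cyp2b10 and Cyp2b13 had one missing (31.8%). In control female against control male liver Cyp2b10, Cyp2b13, Cyp2b19 and Cyp2a12 had a new peak (43.8%). The control male peak of Cyp2a12 was not missing there, while 9.58% of all genes had one missing. In KO female against KO male liver 4 genes had a new peak (26.7%) and 2 had one missing (34.6%). The missing count there was 0 in the gene span, and 1 with peaks merged, with the widest 50% and with equal numbers. The counts of members with new H3K27ac peaks thus did not stand far from the shares of the genome in the first comparisons. In KO female against KO male liver, 4 of 9 genes stood above the 26.7% of all genes. No difference was tested. In both comparisons with control male liver the counts of new peaks were smaller at equal list length. There the longer lists were reduced to the length of the control male list, as given in the closing section.

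The positions of single peaks say more than these counts. At Cyp2b10 the number of H3K27ac peaks was 0 in control male, 5 in KO male, 8 in control female and 5 in KO female liver. In KO male liver a peak of 526 bp lay from 771 to 246 bp before the transcription start. Control female and KO female liver had instead a peak from exon 1 into intron 1, at 149 to 491 bp and at 107 to 453 bp after the start. Intron 1 held a further position, 4393 to 4497 bp after the start, where the peaks of the 3 lists other than control male overlapped. Intron 8 held a peak of 624 bp in control female and of 783 bp in KO female liver, and none in either male list. All of these positions were inside the control male H3K27me3 region. A further control female peak, from 1932 to 1688 bp before the start, overlapped the edge of this region. Other peaks of the same 3 lists lay upstream and outside the region, between 9644 and 2401 bp before the start. Among them, the position chr7:26673438-26673901 was also called in all lists but control male. The overlap in intron 1 is shown because it lies within the gene and is common to the 3 lists, with 100% of its 50-nt sequences unique.
Cyp2b10 intron 1, chr7:26687032-26687136, plus strand: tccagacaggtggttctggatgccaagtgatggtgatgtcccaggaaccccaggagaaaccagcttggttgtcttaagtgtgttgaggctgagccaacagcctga

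Cyp2b13 had 0, 1, 2 and 3 H3K27ac peaks in control male, KO male, control female and KO female liver. One position in intron 4, 22009 to 22347 bp after the start in KO male liver, was called in all lists but control male. The peaks of the 3 lists overlapped over 324 bp, and the first 300 bases of this stretch are shown because it lies inside the former H3K27me3 region and is unique in sequence, unlike the promoter of the gene. KO female liver had 2 further peaks, in intron 4 and intron 8, and control female liver had 1 further peak, downstream of the gene. Cyp2b9 had no H3K27ac peak within 10 kb in 3 lists, and 1 peak of 212 bp in KO female liver. It lay in intron 8, from 29584 to 29795 bp after the start, inside the former control male region, and is shown whole. No peak of H3K27ac was called over either near-identical promoter.
Cyp2b13 intron 4, chr7:26868523-26868822, plus strand: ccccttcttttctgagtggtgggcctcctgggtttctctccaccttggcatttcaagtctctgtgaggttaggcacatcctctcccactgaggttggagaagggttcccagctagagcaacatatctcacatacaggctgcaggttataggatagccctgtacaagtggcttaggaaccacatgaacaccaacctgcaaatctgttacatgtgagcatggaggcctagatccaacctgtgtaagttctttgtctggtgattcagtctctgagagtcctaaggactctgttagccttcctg
Cyp2b9 intron 8, chr7:26988014-26988225, plus strand: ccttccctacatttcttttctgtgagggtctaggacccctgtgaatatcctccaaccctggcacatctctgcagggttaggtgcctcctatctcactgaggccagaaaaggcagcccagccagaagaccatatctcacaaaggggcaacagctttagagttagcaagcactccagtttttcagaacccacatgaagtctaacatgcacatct

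**Figure D4:**
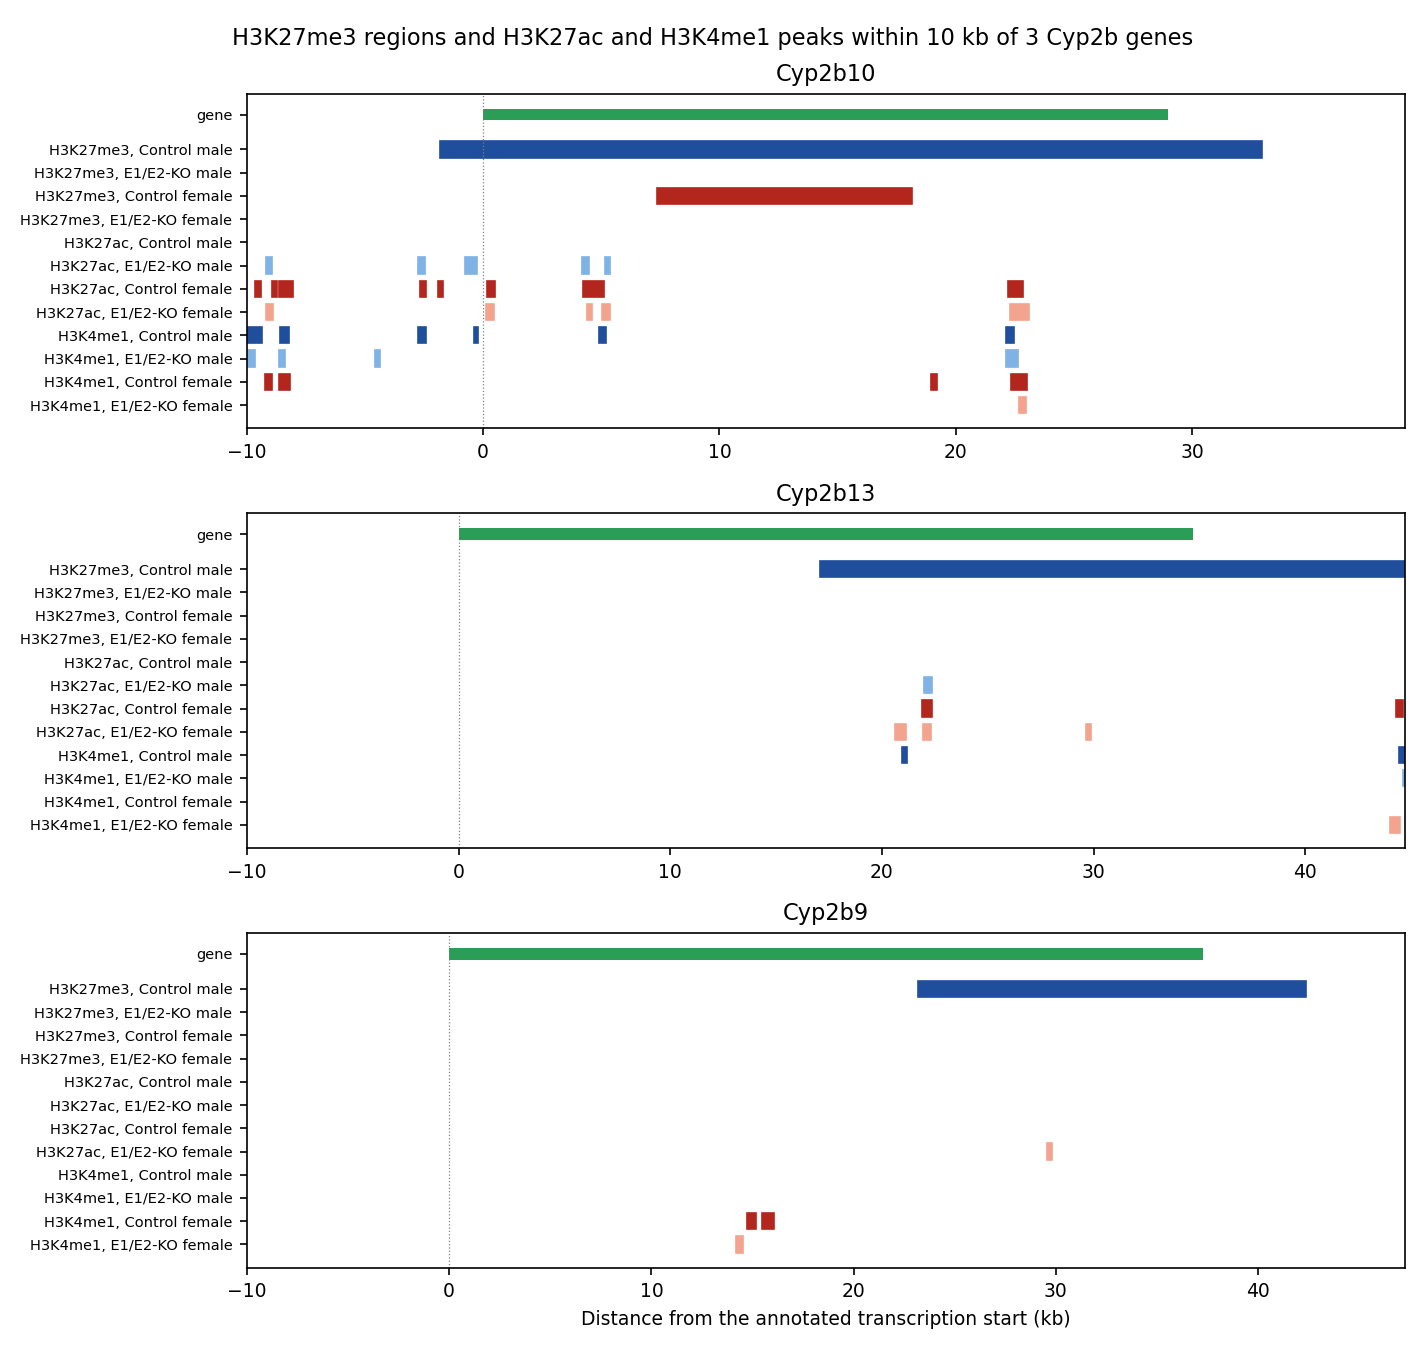
H3K27me3 regions and H3K27ac and H3K4me1 peaks of each group at Cyp2b10, Cyp2b13 and Cyp2b9, from 10 kb before to 10 kb after the gene, in kb from the annotated transcription start (dotted line). Each bar is 1 called region or peak, drawn to scale. The control male region covers all of Cyp2b10 but only the 3' part of Cyp2b13 and Cyp2b9.

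Cyp2b19 had no H3K27ac peak in control male liver and 1 in each of the other lists, downstream of the gene. The 3 peaks overlapped from 25045 to 25333 bp after the start, inside the control male region but beyond the end of the control female region. Control male liver had an H3K4me1 peak there without H3K27ac. Cyp2b23 had no peak of either mark in any list, and 97.1% of its 50-nt sequences were unique. At Cyp2b23, therefore, the region called in control male liver was missing from the other 3 lists without a called activating mark in any of them.
Cyp2b19 downstream, chr7:27567227-27567515, plus strand: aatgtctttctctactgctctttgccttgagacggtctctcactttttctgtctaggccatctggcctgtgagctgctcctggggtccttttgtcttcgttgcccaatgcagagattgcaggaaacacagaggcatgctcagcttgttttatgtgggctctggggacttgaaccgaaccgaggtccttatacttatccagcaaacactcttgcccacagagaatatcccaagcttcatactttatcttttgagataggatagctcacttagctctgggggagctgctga

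Among the Cyp2a genes, Cyp2a12, a steroid hydroxylase gene of liver, had a wide H3K27ac peak just after its start in all lists. Its width was 1283 bp in control male, 1434 bp in KO male, 1254 bp in control female and 1302 bp in KO female liver. A second position, downstream of Cyp2a12, was called in all lists but control male. Cyp2a22 had no H3K27ac peak in either control list, 1 peak in KO male and 3 in KO female liver, all without H3K27me3 in any list. Cyp2a4, a testosterone hydroxylase gene, and Cyp2a5, which encodes a coumarin hydroxylase, had no peak of H3K27ac or H3K4me1 within 10 kb and no H3K27me3 region in any list. These are the genes with the lowest share of unique sequence.

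In all, H3K27ac peaks near the 9 genes fell on 21 distinct positions when overlapping peaks were merged over the lists. Of these, 1 position was called in control male, 10 in KO male, 13 in control female and 14 in KO female liver. The position called in all 4 lists was that of Cyp2a12. A set of 5 positions was called in every list except control male, with 2 at Cyp2b10 and 1 each at Cyp2b13, Cyp2b19 and Cyp2a12, and 11 positions were called in 1 list only. The control male list is the shortest of the 4. Of 73127 positions merged in the same way over the genome, 36.5% were called in control male, 72.0% in KO male, 65.6% in control female and 64.0% in KO female liver, 13.4% in every list except control male and 38.0% in 1 list only.

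H3K4me1 peaks were less uneven in number across the lists. They numbered 10, 9, 9 and 6 within 10 kb of the 9 genes in control male, KO male, control female and KO female liver. The KO female list, with 51417 peaks, is the shortest of the 4 H3K4me1 lists. In the same order, 4, 4, 4 and 5 of the 9 genes had a peak, against 74.3%, 75.4%, 71.4% and 71.0% of all protein-coding genes. At Cyp2b10 the numbers of peaks were 6, 4, 4 and 1. Control male liver, in which Cyp2b10 had no H3K27ac peak, thus had H3K4me1 peaks upstream, in intron 1 and in intron 8 of the gene. In intron 8 each of the 4 lists had a peak, but that of KO female liver overlapped the peak of control female liver and neither male peak. At Cyp2b13 the numbers were 2, 1, 0 and 1. At Cyp2b9 they were 0, 0, 2 and 1, so that H3K4me1 was called in both female lists and in neither male list. The female peaks lay between 14184 and 16053 bp after the start, at exon 4 and in introns 3 and 4, outside the control male H3K27me3 region. No position was common to both female lists, since the KO female peak overlapped neither control female peak. At Cyp2b19 the numbers were 1, 3, 2 and 2, and at Cyp2a12 1 in each list. Merged over the lists, the H3K4me1 peaks near the 9 genes fell on 19 distinct positions. Of these, 2 were called in all 4 lists and 12 in 1 list only. Of 97413 positions over the genome, 28.4% were called in all 4 lists and 37.4% in 1 list only. By list, the genome shares were 67.9%, 65.9%, 52.5% and 49.1%.

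New H3K4me1 peaks were found at 2 of 9 genes in KO male against control male liver (44.6% of all genes), and missing ones at 2 (45.7%). In KO female against control female liver 3 genes had a new peak (39.8%) and 3 had a missing one (46.4%). In control female against control male liver the counts were 3 (32.0%) and 3 (50.5%). In KO female against KO male liver they were 3 (32.4%) and 3 (55.2%). Each share of members with a new H3K4me1 peak was thus near or below that of all genes. Some counts of new and of missing H3K4me1 peaks moved under other settings, as given in the closing section.

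Promoter sequences were searched on both strands for TTCNNNGAA, to which STAT5 binds, for CAAAGTCCA, one of the sequences that HNF4A binds, and for TATAAA, the TATA box. The first 2 were found in 0 of the 9 promoters. Among 32851 RefSeq promoters of the same length they occurred in 8.30% and 0.475%. A further string, 1 form of the DR4 direct repeat of nuclear receptors, had no match in the 9 promoters and occurred in 0.0122% of all. TATAAA occurred in the promoters of all 4 Cyp2a genes, 28 to 39 bases before the start, in none of the 5 Cyp2b promoters, and in 13.6% of all promoters. None of the 4 H3K27ac stretches shown above held any of these motifs.

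Other P450 clusters give a measure of how the 9 genes compare. Of 9 Cyp3a genes, 2 overlapped a region in control male liver, Cyp3a16 and Cyp3a57, and both lost it in KO male liver. They were covered at 64.7% and 66.7% in control male, at 61.1% and 61.4% in control female and at 0% in both KO lists. No Cyp3a gene was lower in control female than in control male liver by 25 percentage points or more. Only the 2 with a control male region could be. Of the 9 Cyp2a and Cyp2b genes 4 were lower, and only the 5 with a control male region could be. Of all genes 6.38% were lower. Cyp3a13 was covered at 100% in both KO lists and at 0% in both control lists. None of 6 Cyp4a genes overlapped a region in any list. New H3K27ac peaks in KO male liver were found at 4 of 9 Cyp3a and 4 of 6 Cyp4a genes. The difference between clusters was not tested, since genes of a cluster are not replicates.

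By summed differences in H3K27me3 coverage over the 4 lists, the genes most like Cyp2b9 among 13501 other protein-coding genes of 10 kb or more were Efcab1, Kctd21, 4930435H24Rik, Pak4 and Tmprss11d. Their summed differences were 0.0125, 0.212, 0.700, 0.805 and 0.964 percentage points. Each had 37.0% to 38.8% coverage in control male liver and 0% elsewhere.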

How the data were processed

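H3K27me3, H3K27ac and H3K4me1 ChIP-seq (50 nt paired-end) was performed on livers of 4 groups. The authors concatenated the reads of a group, mapped them with Bowtie2 2.3.2 to mm9, used MACS2 2.1.1 to call peaks of the activating marks and SICER 1.1 (400 bp windows, gaps of 2400 bp) to call H3K27me3 regions, and deposited coordinates without scores. Pooled depth and the handling of reads with several placements are not given in the sources used here. SICER ends were extended by 1 base to the full window. Gene spans came from GENCODE M1 (NCBIM37, that is mm9), and sequence uniqueness from exact counts of 50-nt sequences on both strands. The overlap and sequence-counting steps were checked on simulated data. Python 3.11.15, NumPy 2.4.6, Numba 0.67.0 and samtools 1.23.1 were used. The genes, lists and thresholds were chosen with earlier results of these data known. Named genes were all 9 members, the 5 genes most like Cyp2b9, and lists of locus neighbours, regulators, cell type markers and the Cyp3a and Cyp4a clusters. Adgre1 of the marker lists and Cyb5a of the regulator list had no match by symbol. Other thresholds, windows and list lengths were tried, with their effect in the closing section.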

Additional observations from a re-analysis of the deposited data

How the results depend on the processing

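Depth of the pooled reads is unknown, no list has a replicate, and no liver could be left out. No paired analysis was possible because the livers of a group were pooled and no result comes from a test. Of 72 counts under alternative settings, 53 were within 1.5 times the value given above, and the cause of the others was not tested. The 53 include the counts of lower coverage in KO female against KO male liver. These were 0 under every setting, since no member overlapped a region in either KO list. For lower H3K27me3 coverage in KO male liver (5 genes), the count was 2 within 3 kb of the start and 3 with the widest 50% of regions, where Cyp2b9 and Cyp2b23 went to 0%. For KO female liver (2 genes) it was 1 for a fall of 50 percentage points, 1 within 3 kb of the start, 0 with the widest 50% of regions, where Cyp2b10 and Cyp2b19 of control female liver went to 0%, and 1 with equal numbers of the widest regions. For control female against control male liver (4 genes) it was 1 within 3 kb of the start. For new H3K27ac peaks in KO male liver (5 genes) it was 2 in the gene span, 2 with the widest 50% and 2 with equal numbers of the widest peaks. For those in control female against control male liver (4 genes) it was 2 in the span, 1 with the widest 50% and 2 with equal numbers. For new H3K4me1 peaks in KO male liver (2 genes) each of these settings gave 1. In KO female against control female liver (3 genes) the span and the widest 50% gave 1, and the widest 50% gave 1 in KO female against KO male liver. Of a further 72 counts in the other direction, 12 moved by more than 1.5 times. Those for higher H3K27me3 coverage, and for missing H3K27ac peaks in both comparisons with control male liver, were 0 under every setting. Some of these could not move, so they say little on stability. Missing H3K27ac peaks in KO female against control female liver (2 genes) were at 0 in the span, 4 within 50 kb, 1 with the widest 50% and 1 with equal numbers, and those in KO female against KO male liver (2 genes) at 0 in the span and at 1 with peaks merged, with the widest 50% and with equal numbers. Missing H3K4me1 peaks (3 genes) were at 5 within 50 kb in both comparisons of the sexes, and at 1 with the widest 50% and with equal numbers in KO female against KO male liver. With 100-nt in place of 50-nt sequences, the unique share was 96.8% for Cyp2b10, 82.1% for Cyp2b13, 92.1% for Cyp2b9, 82.1% for Cyp2a4, 99.9% for Cyp2b23, 100.0% for Cyp2b19, 76.5% for Cyp2a5, 94.7% for Cyp2a22 and 95.4% for Cyp2a12. No member overlapped an H3K27me3 region in either KO list as deposited, with the widest 50%, with equal numbers or with regions within 5 kb merged.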

Other observations

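Genes beside the P450 genes were not uniform in H3K27me3. Cyp2g1, a P450 of olfactory tissue, was covered at 95.0% in control male liver and at 0% in the other 3 lists, the same order as at Cyp2b13, Cyp2b9 and Cyp2b23. Nlrp4a was covered at 74.7% in males and 29.9% in females among controls and at 0% in both KO lists, and Nlrp9c at 33.9% in control male liver only. Cyp2f2 was at 100% in both male lists and at 0% in both female lists. Cyp2s1 was at 100%, 96.5%, 100% and 93.7% and Axl, a receptor tyrosine kinase gene, at 100%, 100%, 100% and 80.6% in control male, KO male, control female and KO female liver. Tgfb1, which encodes a growth factor and lies outside the P450 genes at chr7:26472021-26490096, was at 100% in both control lists and at 0% in both KO lists. Cyp2t4, Egln2, Rab4b and Snrpa were at 0% in every list. Of the 11 neighbours 7, 3, 4 and 2 overlapped a region in the same order of lists.

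Among 10 genes of the regulator and redox partner list found in the annotation, 2 overlapped an H3K27me3 region in control male, 7 in KO male, 3 in control female and 4 in KO female liver. Of all protein-coding genes 42.4%, 47.1%, 42.6% and 40.8% did. Coverage was higher by 25 percentage points or more at 3 of the 10 in KO male against control male liver (9.86% of all genes). In KO female against control female liver it was higher at 3 of them (6.29%). Nr1i3, which encodes CAR, was covered at 99.5% in KO male liver and at 0% in the other lists. Hnf4a, a hepatocyte transcription factor gene, was covered at 89.1% in KO male and 71.0% in KO female liver and at 0% in both control lists. Cux2, a female-biased repressor gene, was covered at 100% in control male, 98.5% in KO male, 30.5% in control female and 71.2% in KO female liver. Stat5b, Bcl6 and Rxra were at 0% in every list. Nr1i3 and Hnf4a had an H3K27ac peak within 1 kb of the start in each of the 4 lists.

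The remaining marker lists were as follows. Of the Kupffer cell and macrophage markers in the annotation, 3 of 4 overlapped an H3K27me3 region in each list, and no marker of that list had an H3K27ac peak within 1 kb of its start. Of 3 lymphocyte markers 2 overlapped a region in each list.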
